A study of Mus musculus with 28 samples.

Results

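The genes described here are the olfactory receptor genes whose names run from Olfr470 to Olfr720, a stretch of the mouse numbering that lies almost wholly on chromosome 7. They were taken by symbol and number from the array's annotation, with the probe set of highest mean for each gene, which gave 178 of the 19946 genes measured. All 178 are annotated as protein coding. RefSeq lists 195 genes with such names, and 14 names were left out because they occur only on probe sets shared by several genes. RefSeq places 177 of the members on chromosome 7, while Olfr720 lies on chromosome 14. The range was selected on earlier results of these arrays, in which the signals of Olfr495 and Olfr497 were lower in homozygous congenic mice than in B6 controls, and the probe set of each gene was chosen by its mean signal. The levels and that comparison are therefore described without a test.

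Each array held RNA from the striatum of a single drug-naive mouse, pooled over punches from both sides. The mice were C57BL/6J (B6) or B6.A/J congenic mice, which carry the stretch from 84 to 96 Mb of a chromosome from the A/J strain in place of the B6 stretch. From knowledge of the study that chromosome is 11, so the members lie outside the exchanged segment. Batch 1 held 6 wildtype B6 littermates and 6 mice heterozygous for B6 and A/J in the segment, littermates of each other per the labels and aged 41 to 68 days. Batch 2 held 8 B6 wildtype controls (61 to 63 days) and 8 mice homozygous for A/J in the segment (52 to 57 days), which were not littermates. Each group had as many females as males. In batch 2 genotype, age, breeding and the order of the array numbers cannot be told apart.

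Olfactory receptors are G protein-coupled receptors of the nasal epithelium, where each mature sensory neuron transcribes a single receptor allele. Odour binding activates a stimulatory G protein that contains the alpha subunit Gnal, which in turn drives the adenylyl cyclase Adcy3 and opens a cyclic nucleotide-gated channel built around Cnga2. Most receptor genes are silent outside the nose, although some are transcribed elsewhere. In mouse, Olfr544 is known as a receptor for azelaic acid in liver and fat, and Olfr558 as a receptor for short-chain fatty acids in kidney and blood vessels. Class I receptors, the group shared with fish, are encoded around the beta-globin genes of chromosome 7, and class II receptors, the larger group of land vertebrates, in many other clusters.

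On chromosome 7 of GRCm38.p6 the 177 members fell into 5 loci when gaps of more than 500000 bases were taken as borders. Locus 1 held 2 members, Olfr520 and Olfr521, between bases 99735145 and 99768130. Locus 2, the region around the beta-globin genes that is known for class I receptors, held 108 members from 102476773 to 105369317. Loci 3 and 4 lay just beyond, with 19 members from 106677534 to 107148329 and 36 members from 107844787 to 108881604. Locus 5 held 12 members from 140162010 to 140705191.

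The members gave a low signal in striatum. Mean log2 signals over the 28 arrays ran from 3.77 for Olfr472 to 7.57 for Olfr545 with a median of 5.80, and all 178 lay below 7.83, the median of all gene means. A mean below 6 was found for 57.3% of members, against 15.8% of all genes and 74.1% of the 837 other Olfr genes. Y-linked genes in the 14 females, which have no Y chromosome, show what signal a probe set can give with no transcript of its own gene present. Those means ran from 4.09 ± 0.05 (SD, n = 14) for Zfy2 to 5.99 ± 0.16 for Kdm5d, with Sry set apart at 8.37 ± 0.08. In the 14 males Kdm5d stood at 8.58 ± 0.16, whereas Sry stood at 8.33 ± 0.09, close to its mean in females. Whether other transcripts add to the signal of these Y-linked probe sets was not tested. Of the members, 76 lay above the female mean of Kdm5d and none above that of Sry. These signals are set by each probe set's own sequence as well as by transcript, so neither this count nor the order of members ranks transcript levels. In bulk tissue fewer cells of a type and less RNA per cell cannot be told apart.

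**Figure D1:**
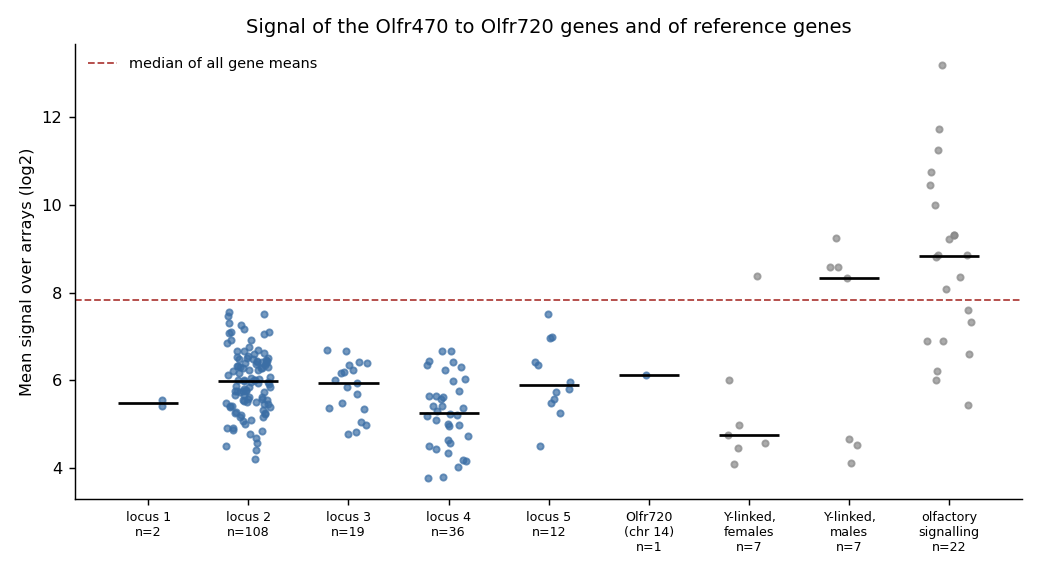
Each point is a gene's mean log2 signal over the 28 arrays, or over the 14 females or 14 males for Y-linked genes, and each bar is the median of its set. All members lie below the dashed line at 7.83, the median of all gene means, and most lie in the range of the Y-linked genes in females.

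By locus, the median of member means was 5.97 in locus 2, 5.94 in locus 3, 5.88 in locus 5, 5.48 in locus 1 and 5.25 in locus 4, with members from 3.77 to 6.67 in locus 4 and from 4.21 to 7.57 in locus 2. The 3 lowest members, Olfr472 (3.77), Olfr482 (3.79) and Olfr490 (4.02), all belonged to locus 4. Among the 6 highest members, Olfr545 (7.57), Olfr678 (7.51), Olfr550 (7.46), Olfr571 (7.31) and Olfr669 (7.26) belonged to locus 2 and Olfr524 (7.50) to locus 5. At the ends of the numbering, Olfr470 (5.18) and Olfr472 (3.77) were the first members inside and Olfr720 (6.12) the last, while Olfr469 (5.68) and Olfr722 (3.88) lay just outside.

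Olfr545, known in mouse as a receptor for dicarboxylic acids, had the highest signal in a narrow range. Its log2 signal (lowest, median and highest) was 7.33, 7.57 and 7.60 in littermates, 7.51, 7.62 and 7.65 in heterozygous mice, 7.46, 7.54 and 7.60 in controls and 7.50, 7.58 and 7.70 in homozygous mice. The 4 groups overlapped over most of their range. Its neighbour Olfr544 stood at 6.14 ± 0.16 (SD, n = 6) in littermates, 6.17 ± 0.21 (n = 6) in heterozygous mice, 6.15 ± 0.16 (n = 8) in controls and 6.16 ± 0.14 (n = 8) in homozygous mice. Olfr558 stood at 7.00 ± 0.12, 7.09 ± 0.08, 7.08 ± 0.07 and 7.02 ± 0.10 in the same order. Neither of these receptors with known roles outside the nose passed the test in heterozygous mice (differences of 0.03 and 0.08 log2, limma adjusted p = 1.00 for each) or between the sexes.

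The genes that serve these receptors in the nose did not share one level. Gnal, also the stimulatory alpha subunit of striatal spiny neurons, was at 11.73 ± 0.15 (SD over 28 arrays) and Adcy3 at 9.22 ± 0.09. The channel subunits Cnga2 and Cnga4 were at 5.43 ± 0.15 and 6.01 ± 0.10, and Omp, the marker of mature olfactory neurons, at 6.90 ± 0.12. Rtp1 and Rtp2, chaperones that bring receptors to the cell surface, were at 6.60 ± 0.10 and 6.90 ± 0.12. Cnga2, Cnga4, Omp, Rtp1 and Rtp2 thus lay in the range of the members' means, while Gnal and Adcy3 lay above all of them. Of the other listed markers of olfactory sensory neurons, Gng13 (8.82) and Ano2 (8.86) also lay above. Stoml3 (6.22) and Slc17a6 (6.59) lay within that range. The median over the whole olfactory signalling list was 8.84. Of the 22 genes of the olfactory signalling list, none was called in heterozygous mice by limma, which also gave 0 of them an unadjusted p under 0.05.

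The mean over all members was taken on each array to follow the family as a whole. It was 5.78 ± 0.06 (SD, n = 6) in littermates, with a lowest, median and highest array of 5.67, 5.80 and 5.83. Heterozygous mice gave 5.82 ± 0.06 (5.75, 5.80 and 5.91). Controls gave 5.85 ± 0.04 (5.79, 5.84 and 5.93, n = 8) and homozygous mice 5.76 ± 0.06 (5.67, 5.76 and 5.85, n = 8). The ranges of littermates and heterozygous mice overlapped, with 2 heterozygous arrays above the highest littermate and 1 littermate below the lowest heterozygous array. In batch 2, 6 of 8 homozygous arrays lay below the lowest control array and 3 controls above the highest homozygous array. The mean of homozygous minus control mice was -0.09 log2, and that of heterozygous mice minus littermates 0.04. For the 837 other Olfr genes the same differences were -0.08 and 0.03, close to those of the members. Levels were compared only within a batch, since the deposited values had been adjusted for batch.

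**Figure D2:**
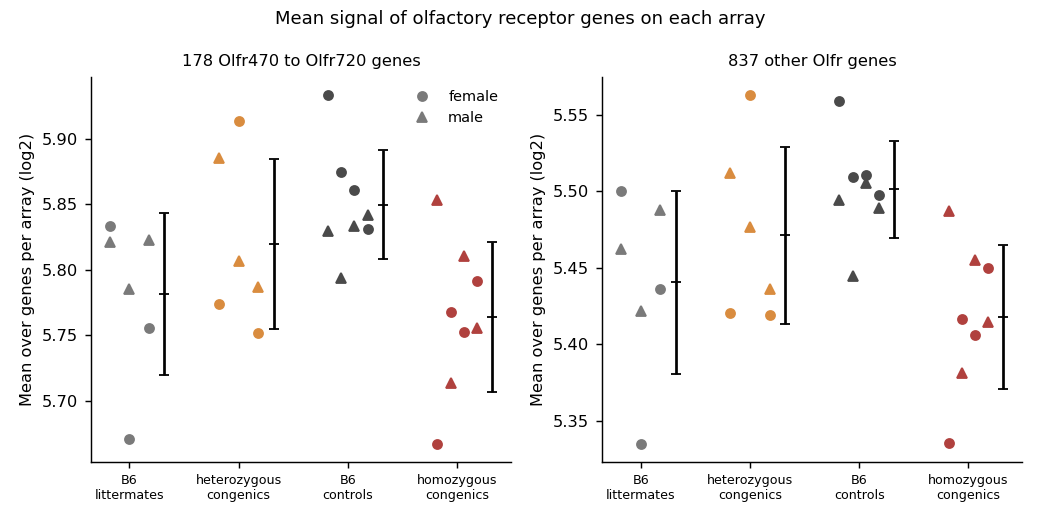
Each point is an array's mean log2 signal over the 178 members (left) or the 837 other Olfr genes (right), circles for females and triangles for males, with the group mean and SD beside it. In both panels the homozygous arrays lie mostly below the controls, and the arrays of batch 1 overlap between genotypes.

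B6 control 1 had the highest member mean of its group (5.93) and also stood apart in markers of other cells. Its mean over 23 hepatocyte genes was 11.08, against 6.73 to 10.00 in the other 7 controls and 7.14 to 9.73 in homozygous mice, and its mean over 15 spiny neuron genes was the lowest of all arrays at 11.03. Without it the difference between homozygous and control mice in the member mean was -0.07. By age, controls of 63 and 61 days averaged 5.86 and 5.84, and homozygous mice of 57 and 52 days 5.75 and 5.78 (n = 4 each). Hepatocyte markers were 0.36 log2 higher in homozygous mice by the median of the list, with 19 of 23 genes higher. That median was 0.75 without B6 control 1 and 0.14 without B6 control 8, and it kept its sign without each of the other arrays of batch 2. The part of these cells in the member means was not tested.

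No member was called in heterozygous mice against their littermates, by limma with Benjamini-Hochberg adjustment over all genes at 0.05. Across all 19946 genes the share called was 0.0 percent, so the adjusted test gave nothing against which to read the members. At an unadjusted p under 0.05, 19 of 178 members passed (10.7%), 16 higher and 3 lower in heterozygous mice, beside 3.68% of all genes, 2.28% higher and 1.4% lower. The share was 45 of 837 among the other Olfr genes. By sign, 126 members had a higher and 52 a lower mean, beside 51.6% higher and 48.4% lower among all genes, and the median difference was 0.04 against 0.0024 for all genes and 0.03 for the other Olfr genes. Other families tilted the same way. Higher means were found for 577 of 837 other Olfr genes and 106 of 165 receptor genes of the pheromone-sensing (vomeronasal) organ. They were also found for 31 of 47 taste and trace amine receptor genes and 54 of 83 keratin-associated protein and beta-defensin genes. Among genes with a mean between 5 and 6, 48 of 73 members and 976 of 1586 genes outside the receptor families were higher. Members share arrays and move together on them, so these counts are not those of independent genes. Leaving out littermate 5, whose array had the lowest member mean, took the count from 19 to 11. The members' median was then 0.02, with 101 members higher and 77 lower. Among all 19946 genes that fit gave 615 at this p and 9898 higher. Without heterozygous mouse 4 the members' median was 0.017 with 104 higher, beside 10293 of all genes. That median rose to 0.058 without littermate 1 and to 0.055 without heterozygous mouse 6. Quantile normalization gave 106 members higher and 72 lower with a median of 0.018. Among all genes 10116 were then higher, with a median of 0.0011. Centring each array on the other Olfr genes gave 95 higher and 83 lower with a median of 0.0052, beside -0.028 over all genes. The 6 choroid plexus genes were lower in heterozygous mice by a median of 0.10, with 6 of 6 lower and the transthyretin gene Ttr lower by 0.69. Littermate 1 had a mean of 8.33 over these genes, against 7.33 to 7.57 in the other littermates. Without it 4 of the 6 genes were higher in heterozygous mice, with a median of 0.018. Heterozygous mouse 2 had a mean of 8.08, against 7.01 to 7.48 in the other heterozygous mice. Without that mouse 6 of 6 genes were lower, with a median of -0.16 and Ttr at -1.16. The part of the choroid plexus genes in the members' differences was not tested.

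The 5 members of smallest p in that comparison all lay in locus 2 and did not pass. Olfr566 had the smallest p, with log2 signals (lowest, median and highest) of 6.62, 7.03 and 7.13 in littermates and 7.04, 7.22 and 7.42 in heterozygous mice. Of the 6 heterozygous arrays 4 exceeded every littermate, and the others overlapped with them. The difference was 0.28 ± 0.09 log2 (SE, 95% interval 0.11 to 0.46, limma adjusted p = 1.00), with 6 of 6 heterozygous mice above the littermate mean.

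Olfr689 ran from 5.82 through 5.98 to 6.07 in littermates and from 6.06 through 6.13 to 6.36 in heterozygous mice, so that the groups met only at their edges. It differed by 0.20 ± 0.06, and Olfr619 and Olfr658 by 0.20 ± 0.07 and 0.12 ± 0.04. Olfr603 went the other way, at 5.16, 5.26 and 5.63 in littermates against 4.57, 4.97 and 5.25 in heterozygous mice, a difference of -0.33 ± 0.12. The limma adjusted p was 1.00 for each of these 4. In batch 2, where heterozygous mice do not occur, the homozygous minus control difference was -0.13 for Olfr566, -0.19 for Olfr689, -0.21 for Olfr619, -0.01 for Olfr658 and -0.04 for Olfr603, so the sign was opposite for the 4 that were higher in heterozygous mice. No member had all heterozygous arrays above or all below the littermates, beside 0.0953% and 0.0602% of all genes.

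Homozygous mice had lower means than controls for most members. Of 178 members 153 were lower and 25 higher, with a median of -0.07 log2, beside 38.5% lower and a median of 0.02 among all genes. A difference beyond -0.2 was found for 25 members, beside 1.23% of all genes, and 0 members lay beyond 0.2, beside 0.321%. These values belong to the comparison that drew attention to the family and are given as a description. The other Olfr genes were as low, with 705 of 837 lower, 82 of them beyond -0.2, and a median of -0.08. Vomeronasal receptor genes, which are used in the pheromone-sensing organ, had a median of -0.05 (135 of 165 lower), taste and trace amine receptor genes -0.04 (41 of 47) and keratin-associated protein and beta-defensin genes -0.02 (52 of 83). Among genes with a mean between 5 and 6, the 73 members had a median of -0.09 and the 1586 genes outside the odorant, vomeronasal, taste and trace amine receptor families 0.0028. Centring each array on the other Olfr genes turned the members' median to 0.01 and moved that of all genes to 0.10.

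By locus the median differences ran from -0.12 to 0.01. Locus 4 had a median of -0.12 with 31 of 36 members lower and 11 beyond -0.2. Locus 2 had -0.07 (96 of 108 lower, 12 beyond -0.2), and locus 3 had -0.05 (19 of 19 lower, 2 beyond -0.2). Locus 5 stood at 0.01 with 5 of 12 lower, and both locus 1 members were split in sign. None of loci 1 and 5 passed -0.2. The 19 genes other than olfactory receptors inside locus 2, among them Trim and embryonic globin genes, had a median of -0.02. Of the olfactory signalling genes 20 of 22 had higher means in homozygous mice, with a median of 0.04, opposite in sign to the receptors. Among all genes 61.5% were higher, with a median of 0.02.

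**Figure D3:**
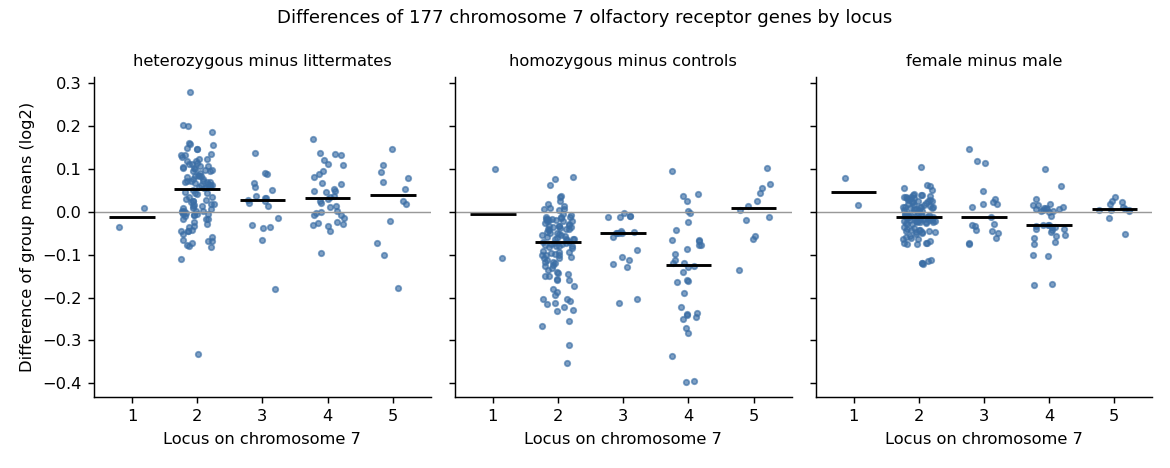
Each point is a member's difference of group means (log2) in heterozygous mice minus littermates, homozygous minus control mice and females minus males, by locus along chromosome 7, with bars for the median of each locus. In the middle panel the bars run from -0.12 in locus 4 to 0.01 in locus 5.

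The lowest members of this comparison were led by Olfr485, Olfr488 and Olfr495 of locus 4, together with Olfr622 of locus 2. The 300-base RefSeq windows at the annotated starts of Olfr485, Olfr488, Olfr495 and Olfr497 are printed because these genes had the low values, and that of Olfr545 because it had the highest signal. Each runs in the direction of the gene in GRCm38.p6, with 250 bases before the start in lower case and the first 50 bases of the gene in capitals. They cover chr7:108159822-108160121 on the minus strand for Olfr485, chr7:108256087-108256386 on the minus strand for Olfr488, chr7:108394872-108395171 on the plus strand for Olfr495, chr7:108422323-108422622 on the plus strand for Olfr497 and chr7:102494724-102495023 on the minus strand for Olfr545.
Olfr485: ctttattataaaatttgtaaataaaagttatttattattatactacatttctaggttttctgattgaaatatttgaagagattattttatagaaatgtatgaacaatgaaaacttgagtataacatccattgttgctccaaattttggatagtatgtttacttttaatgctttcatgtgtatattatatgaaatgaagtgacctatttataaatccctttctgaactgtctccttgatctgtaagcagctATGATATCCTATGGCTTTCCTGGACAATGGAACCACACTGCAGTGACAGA
Olfr488: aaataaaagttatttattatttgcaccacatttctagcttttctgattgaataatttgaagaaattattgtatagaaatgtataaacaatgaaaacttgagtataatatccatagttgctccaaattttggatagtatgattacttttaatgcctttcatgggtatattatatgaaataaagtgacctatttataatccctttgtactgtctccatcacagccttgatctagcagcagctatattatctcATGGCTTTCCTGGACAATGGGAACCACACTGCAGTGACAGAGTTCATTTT
Olfr495: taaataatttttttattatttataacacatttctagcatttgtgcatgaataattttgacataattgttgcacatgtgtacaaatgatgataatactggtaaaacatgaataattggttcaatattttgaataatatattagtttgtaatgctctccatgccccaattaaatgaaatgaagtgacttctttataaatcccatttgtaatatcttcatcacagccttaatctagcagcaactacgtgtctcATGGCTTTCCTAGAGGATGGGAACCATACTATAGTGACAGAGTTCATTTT
Olfr497: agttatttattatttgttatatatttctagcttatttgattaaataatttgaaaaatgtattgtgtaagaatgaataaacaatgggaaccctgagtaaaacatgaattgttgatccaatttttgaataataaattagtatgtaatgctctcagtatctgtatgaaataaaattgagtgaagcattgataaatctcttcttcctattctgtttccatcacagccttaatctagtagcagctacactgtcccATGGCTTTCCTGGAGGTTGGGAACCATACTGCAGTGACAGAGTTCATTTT
Olfr545: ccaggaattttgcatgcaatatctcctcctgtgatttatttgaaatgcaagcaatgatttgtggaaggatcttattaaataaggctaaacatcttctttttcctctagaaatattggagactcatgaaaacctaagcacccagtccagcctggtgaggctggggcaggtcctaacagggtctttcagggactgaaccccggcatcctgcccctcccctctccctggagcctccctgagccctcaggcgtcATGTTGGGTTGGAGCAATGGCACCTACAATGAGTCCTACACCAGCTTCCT
In each of the 5 the capitals open with ATG, so RefSeq starts these genes at a start codon, and the untranslated leader and promoter that a sensory neuron uses may lie farther upstream. The first 50 bases of Olfr488 and Olfr497 were identical at 46 positions, those of Olfr495 and Olfr497 at 46 and those of Olfr488 and Olfr495 at 44, while Olfr545 shared 20 with Olfr488. Olfr485 is annotated from an ATG a few bases farther upstream, and shares a run of 22 bases with Olfr488. How far the array's probes tell these 4 genes apart was not tested, and their values may not be independent.

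Olfr488 gave log2 signals (lowest, median and highest) of 5.57, 5.78 and 6.19 in controls and 5.20, 5.43 and 5.54 in homozygous mice. Every homozygous array lay below every control, and the means differed by -0.39 ± 0.09 (SE, 0.761-fold). In batch 1 the same gene ran from 5.13 through 5.60 to 5.93 in littermates and from 5.30 through 5.71 to 5.97 in heterozygous mice, which overlapped over most of their range.

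Olfr495 ran from 4.98 through 5.14 to 5.22 in controls and from 4.64 through 4.77 to 4.97 in homozygous mice, again without overlap. The difference was -0.34 ± 0.07 (0.792-fold). Its heterozygous minus littermate difference was 0.17 ± 0.08 (95% interval -0.0035 to 0.34, limma adjusted p = 1.00), with 5 of 6 heterozygous arrays above the littermate mean. It was 0.10 without littermate 5 and 0.11 without heterozygous mouse 4.

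Olfr497 ran from 5.04 through 5.09 to 5.25 in controls and from 4.74 through 4.84 to 4.94 in homozygous mice, with no overlap and a difference of -0.28 ± 0.06 (0.822-fold). In heterozygous mice it differed from littermates by 0.02 ± 0.07 (95% interval -0.13 to 0.17). Olfr485 had the lowest difference, -0.40 ± 0.09 (0.759-fold), at 6.25, 6.45 and 6.96 in controls against 5.86, 6.11 and 6.31 in homozygous mice. Its groups overlapped, with 6 of 8 homozygous arrays below the lowest control. Olfr622 differed by -0.35 ± 0.11, at 5.90, 6.16 and 6.76 in controls against 5.65, 5.86 and 6.02 in homozygous mice, which overlapped. Its highest control array lay well above the rest of that group.

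**Figure D4:**
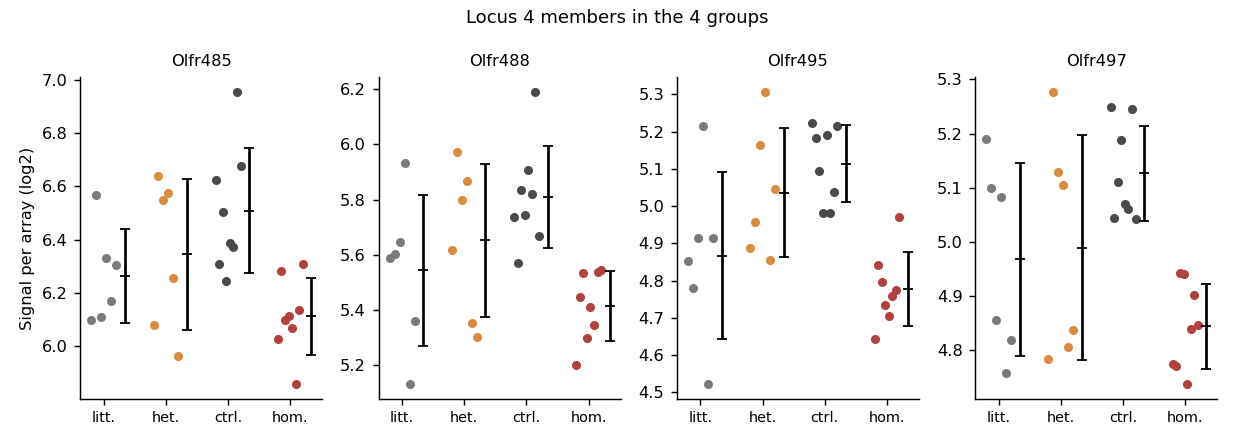
Log2 signal of Olfr485, Olfr488, Olfr495 and Olfr497 on each array in the 4 groups, with group means and SD, each panel on its own axis. Homozygous and control arrays are separate for Olfr488, Olfr495 and Olfr497 and overlap for Olfr485, and the batch 1 groups overlap for all 4.

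In all, 6 members had every homozygous array below every control, beside 0.0902% of all genes. Besides the 3 of locus 4 these were Olfr606 (-0.27 ± 0.08) and Olfr672 (-0.23 ± 0.06) of locus 2 and Olfr706 (-0.21 ± 0.05) of locus 3, which are named because of this count. None was separate in the other direction. The 6 include Olfr495 and Olfr497, on whose low values the range was selected, so this count is only a description. At the upper end stood Olfr531 of locus 5 (0.10 ± 0.06), Olfr520 of locus 1 (0.10 ± 0.05), Olfr512 of locus 4 (0.10 ± 0.07) and Olfr550 of locus 2 (0.08 ± 0.06), whose arrays overlapped between groups. The difference of Olfr531 was 0.043 without B6 control 7, and that of Olfr512 was 0.16 with age as a covariate. Without B6 control 1, 140 members were lower, the median was -0.06 and 18 lay beyond -0.2. Of all 19946 genes 142 lay beyond -0.2 in that fit and 11470 were higher, with a median of 0.0098.

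Windows at the gene start were found for 157 members and were poor in G and C. Their median G and C content was 37%, against 52.7% over 27025 windows of all genes and 34.7% over 706 windows of other Olfr genes. The annotated start was an ATG in 122 of the 157 (77.7%), against 6.75% of all windows and 71.7% of other Olfr windows. Most member windows thus end in coding sequence. The homeodomain-type motif TAATTA reads the same on both strands. It occurred in 20 member windows (12.7%), in 5.31% of all windows and in 19.8% of other Olfr windows. It occurred in none of the 5 printed windows.

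Members with less G and C in this window had lower values in homozygous mice. The 54 members from 21.3% to 34.3% had a median difference of -0.10 with 52 lower, the 53 from 34.7% to 39.0% one of -0.07 with 50 lower, and the 50 from 39.3% to 56.3% one of -0.02 with 31 lower. Across the 157 members Pearson's r was 0.42 between this content and the homozygous minus control difference, as a description over genes that share arrays and neighbouring sequence. It was 0.35 over 706 other Olfr genes and 0.26 over 15619 genes. For heterozygous mice minus littermates r was -0.05 over the members, and the 3 ranges had medians of 0.05, 0.04 and 0.04. Locus 4, with the lowest differences, had a median content of 33.0%, and locus 5, with a median difference of 0.01, 48.7%. The windows are not the probe sequences, and the part of base composition in the differences was not tested.

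**Figure D5:**
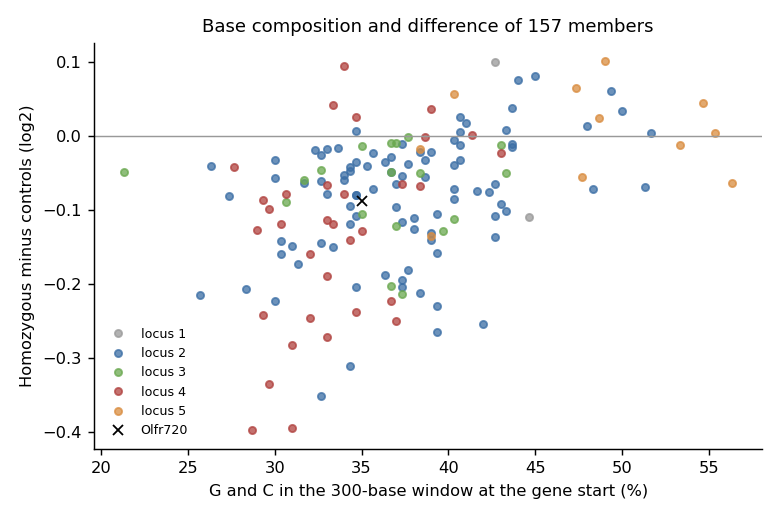
Each point is one of 157 members, with the G and C content of its 300-base start window (percent) against its homozygous minus control difference (log2), coloured by locus. The 4 lowest differences belong to members with 28.7% to 32.7% G and C, and the locus 5 members at the right lie near 0.

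No member was called between females and males by limma with Benjamini-Hochberg adjustment over all genes. The 11 genes called between the sexes made up 0.0551% of all genes. At an unadjusted p under 0.05 there were 9 members, 2 higher and 7 lower in females, or 5.06% beside 7.34% of all genes, 3.19% higher and 4.15% lower. By sign 78 were higher and 100 lower in females, with a median of -0.0094. Among all genes 53.2% were higher, with a median of 0.0036. Of the other Olfr genes 364 of 837 were higher, with a median of -0.0059, close to the members. The direction of the members' tally depended on the arrays. Batch 1 alone gave 54 higher and 124 lower with a median of -0.036, whereas batch 2 alone gave 96 higher and 82 lower with a median of 0.0076. Without littermate 5 it was 90 higher and 88 lower, and after quantile normalization 54 higher and 124 lower. Among all 19946 genes 10255, 10323, 10810 and 9721 were higher in those fits, in the same order. Olfr668 had the smallest p, with log2 means of 5.48 in 14 females and 5.60 in 14 males and a difference of -0.12 ± 0.04 (SE, limma adjusted p = 0.578). Olfr638 differed by -0.12 ± 0.05, Olfr485 by -0.17 ± 0.07, Olfr488 by -0.17 ± 0.07 and Olfr704 by 0.15 ± 0.06, with limma adjusted p from 0.620 to 0.656. For Olfr704 the difference was 0.23 in batch 1 alone and 0.089 in batch 2 alone. The ranges of the sexes overlapped for all 5. Within batch 1 alone 13 members reached an unadjusted p under 0.05, 12 of them lower in females, and within batch 2 alone 8, of which 5 were higher. Among all 19946 genes those fits gave 1137 and 1184. The member count over all arrays was 4 without littermate 2 and 17 after quantile normalization, beside 1487 and 1454 of all genes. Striatal spiny neuron markers were lower in females for 15 of 15 genes, with a median of -0.12, beside 46.8% lower among all genes. The array with the lowest mean over these markers, B6 control 1 (11.03), came from a female. The part of these markers in the members' differences was not tested.

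Members varied together within groups. Over the 15753 pairs of members the correlation of their deviations from group means had a median of 0.20, and 82.8% of pairs lay above 0, as a description over 28 shared arrays. The highest was 0.81, and 0 pairs exceeded 0.9. These correlations were not computed for other genes, so they do not set the members apart. The SD of a member within a group had a median of 0.12 log2, against 0.10 over all genes.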

How the data were processed

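Striatal RNA of 28 mice was measured on Mouse Gene 1.0 ST arrays. The authors obtained the deposited log2 values by RMA with Affymetrix Expression Console (versions not given), per the submitters' processing notes. They masked probes on coding SNPs of the A/J segment and adjusted for batch with ComBat, per the deposited notes. No values were missing and 0 columns were unmatched.

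Genes were named from the 21797 of 35556 probe sets with 1 symbol, by the set of highest mean. 1 model of 4 group means and sex was fitted to all 28 arrays in R 4.3.3 by limma 3.58.1, using lmFit and eBayes. Its 2-sided p-values were adjusted over 19946 genes by Benjamini-Hochberg, with a threshold of 0.05. Homozygous against control mice was described only. The number of arrays limits the precision. When the heterozygous comparison was simulated for 19946 genes, the model found 38% of changes of 0.2 log2, 88% of those of 0.4, 96% of those of 0.8 and 100% of those of 1.6, beside 8 false calls. The simulation changed 50 genes of each size and drew noise independently for each gene, whereas the members varied together. These rates therefore do not measure what could be found among the members.

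Members, lists and settings were chosen with earlier results of these data known. Named were Olfr495, Olfr497, Olfr544 and Olfr558, the 6 highest and 3 lowest members, the 5 of smallest p where none was called, and the 4 highest and 4 lowest by homozygous minus control difference. Protein sequences were not used here, so paralogs by protein identity were not named. Positions and windows are RefSeq's on GRCm38.p6, and windows matched 157 members. The alternatives were quantile normalization, centring on other Olfr genes, a minimum mean of 6, the mean of all probe sets, age as a covariate, a replicate block, no sex term, single batches, leaving out each array and, chosen after seeing the data, leaving out Olfr720.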

Additional observations from a re-analysis of the deposited data

Results flagged for a closer look

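Among 112 combinations of a group with 1 of 27 named members or with the mean over all members, 8 held an array whose gap to the nearest other exceeded Dixon's 95% critical value, where chance alone gives about 1 in 20. B6 control 7 accounted for 3 of them, with log2 signals of 6.76 for Olfr622 (5.90 to 6.24 in the other controls), 5.29 for Olfr531 (5.70 to 5.81) and 6.96 for Olfr658 (7.07 to 7.16). B6 control 1 stood at 4.05 for Olfr482 (3.73 to 3.88 in the others). Among homozygous mice, mouse 4 stood at 5.23 for Olfr520 (5.46 to 5.58) and at 3.83 for Olfr490 (3.93 to 4.01). Homozygous mouse 3 stood at 7.79 for Olfr524 (7.36 to 7.55), and homozygous mouse 6 at 3.97 for Olfr472 (3.68 to 3.80). The cause of these values was not tested.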

How the results depend on the processing

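No member was called in heterozygous mice or between the sexes under any setting run. Centring on the other Olfr genes turned the homozygous median to 0.013, and left 5 members beyond -0.2 and 12 heterozygous members at an unadjusted p under 0.05. By its construction it removes what members share with those genes. Among all 19946 genes it gave 61 beyond -0.2 and 699 at that p in heterozygous mice. With a minimum mean of 6, which kept 76 members, the member counts were 7 and 9, and that for sex 4. Over the 16790 genes kept, the same counts were 114, 557 and 1263. Quantile normalization gave 17 for sex, beside 1454 of all genes. The control mean was 5.89 as a median over members. Leaving out each array gave 11 to 22 heterozygous members, 4 to 12 for sex (4 without littermate 2) and a homozygous median from -0.08 to -0.06. The heterozygous ends, without littermate 5 and littermate 2, came with 615 and 960 of all genes. The sex ends, without littermate 2 and B6 control 1, came with 1487 and 1375. Without Olfr720 the heterozygous count was 19 and the homozygous median -0.07. Same-numbered arrays were not treated as pairs, and their deviations from group means had correlations from -0.52 to 0.69. The same-numbered array was the closest match for littermates 1 and 6 and for B6 controls 1, 5 and 8. For the others it was not, so the check does not settle whether the numbers pair the arrays. With the replicate number as a block the heterozygous count stayed at 19, beside 781 of all genes. Again 0 members were called, and the homozygous median was -0.07. Same-numbered arrays differed in sex only for replicates 4 and 5 of batch 1, so the sex difference then rested on these alone. In that fit 6 members reached an unadjusted p under 0.05 for sex, beside 671 of all genes. The sex differences of Olfr668 and Olfr485 turned from lower to higher in females, at 0.018 and 0.078. The cause of the changes under the other settings was not tested. Signals near those of Y-linked genes in females limit what the members can show.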
